A study of Danio rerio with 12 samples.

Results

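Of the 12 brain arrays of the series, 6 compared zebrafish that had received synthetic double-stranded RNA and could choose their temperature with zebrafish that had received the same agent and could not. Poly(I:C), a synthetic double-stranded RNA (dsRNA) that stands in for a viral genome, was injected into the body cavity of adults, and whole brains were taken 24 h later. Td denotes the 3 arrays of fish kept with a thermal gradient (titles PIC_G), and Ti the 3 arrays of fish kept without one, at constant temperature (titles PIC_sG). Each array held RNA from 1 pool of 3 brains, so 9 brains stood behind each group. Of the other groups, Sd (saline injection, with gradient) and C (not injected), 3 arrays each, are given only for context. No strain, sex or genotype difference between the groups was stated, the dose of poly(I:C) was 1 mg/kg in the labels and another in the methods, and the labels place the C fish inside the gradient while the methods place them outside it. The study's text speaks of individual fish where the labels and methods give pools, so p-values below measure only the spread between pools and arrays.

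The assignment of the arrays decides every sign in what follows. Td and Ti were taken from the labels of the scanner files, and the authors' table of each sample held the values of its own scanner file. In the deposited table of the whole series, the columns of the 3 Ti samples held 100% of the values of the Td arrays and those of Td held the Ti arrays, within 0.001 on the natural log scale, whereas the C and Sd columns held their own. With the groups exchanged, each difference below keeps its size and takes the opposite sign, and nothing in the files decides between the assignments. "Higher in Td" therefore means higher on the arrays whose scanner files are labelled Td. The values are log2 of the scanner's processed signal less the 75th percentile of the array, so a level of 0 is the 75th percentile of that array. Levels are compared between arrays for 1 transcript, and between transcripts only to pick out bright or dim ones.

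Vertebrate cells read dsRNA through Toll-like receptor 3, the RIG-I-like helicases and the kinase PKR, beside which fish have the kinase PKZ. Type I interferon then acts through its receptors and their transcription factors on interferon-stimulated genes, among which viperin (Rsad2), the Mx GTPases and the IFIT proteins hold back viral replication. Heat-shock proteins are chaperones induced through heat-shock factor when a cell is warmed. Fish are ectotherms, and an ectotherm that is given the choice can raise its body temperature during an infection by moving to warmer water, which is called behavioural fever.

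Of 43603 probes other than controls, 17880 were named by a RefSeq transcript and 16568 of these carried a gene symbol. Transcripts well above background on 3 or more of the 6 arrays numbered 14980, of which 7791 had a symbol. No transcript passed an adjusted p of 0.05 in either direction (0% of those tested; limma with Benjamini-Hochberg adjustment). At an unadjusted p under 0.05, 679 transcripts were higher in Td (4.53%) and 246 lower (1.64%), and at 0.01 they were 81 (0.541%) and 75 (0.501%). All 3 Td arrays lay above all 3 Ti arrays in 1569 transcripts (10.5%) and below them in 285 (1.9%). The split depended on the scaling: 2039 against 70 at the 50th percentile of each array, 797 against 194 after quantile normalization, 624 against 82 after normexp background correction, 170 against 2717 with no filter on dim probes, and 239 against 413 with the kept transcripts centred on their own median. The median difference over all transcripts was 0.22 (log2) and 69.2% of the differences were above 0 and 30.8% below it, so groups of genes are given below relative to that median. Leaving out 1 array moved the counts too. Without Ti replicate 1, 14 transcripts passed the adjusted threshold and 379 were lower at p under 0.05. Without Ti replicate 2, 1206 were higher. Without Td replicate 2, 284 were higher and 154 lower, and without Td replicate 3, 231 were higher.

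The arrays were not of one quality, and Ti replicate 3 stood apart. It had 6330 features well above background where the other Ti arrays had 20280 and 13494 and the Td arrays 21900, 18244 and 17773. The 75th percentile of its intensities was 34.6, where the other 5 arrays ran from 238 to 541, and its lowest signal well above background lay at -0.64 on the log2 scale used here against -4.19 to -2.34 on them. A transcript that the array could not see could therefore sit near -1.3 on Ti replicate 3 and much lower elsewhere. It could also read higher there, as gh1 did at 0.80 while not well above background. The mean number of features well above background was 13368 in Ti and 19306 in Td (exact permutation test, two-sided, p = 0.3 with a smallest possible p of 0.1), and the SD of the negative controls was 22.6, 29.3 and 17.4 in Ti against 7.26, 9.15 and 9.37 in Td (exact p = 0.1, the smallest possible). Their part in the results was not tested. Each slide carried 1 array of each group at the same position, so group and position cannot be told apart. Without Ti replicate 3, 473 transcripts were higher (3.16%) and 181 lower (1.21%) at p under 0.05, and values without that array are given beside many of the groups that follow.

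Of the 48 lists of genes examined, 8 had a median more than 0.3 (log2) from that of all transcripts. Interferon-stimulated effectors, liver plasma proteins and cytosolic ribosomal proteins lay below it, and extracellular matrix, myelin, pituitary, neuron structure and immediate-early genes lay above it. Within the 3 slides, each a pair of 1 Td and 1 Ti array, the effector, matrix, neuron structure, heat-shock and erythroid lists were on 1 side of 0 in all 3. So were the TRIM, constitutive proteasome, ion channel and circadian lists. The medians of these lists, and of the heat-shock and erythroid lists, lay nearer to that of all transcripts than 0.3. The circadian list had a relative median of -0.002, with -0.31, -0.14 and -0.20 in slides 1, 2 and 3. The myelin, pituitary, immediate-early, liver and ribosomal lists changed side in at least 1 slide. In slide 3 the median over all transcripts varied with signal. It was -0.51 over the dimmest 2996, 0.77 over the middle 2996 and 0.41 over the brightest 2996. The slide 3 medians of the matrix and neuron structure lists, 0.96 and 0.92, lay above these values. That of the heat-shock list, 0.51, lay below the middle value. Lists were not matched for signal, and the part of signal in their slide values was not tested.

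**Figure D1:**
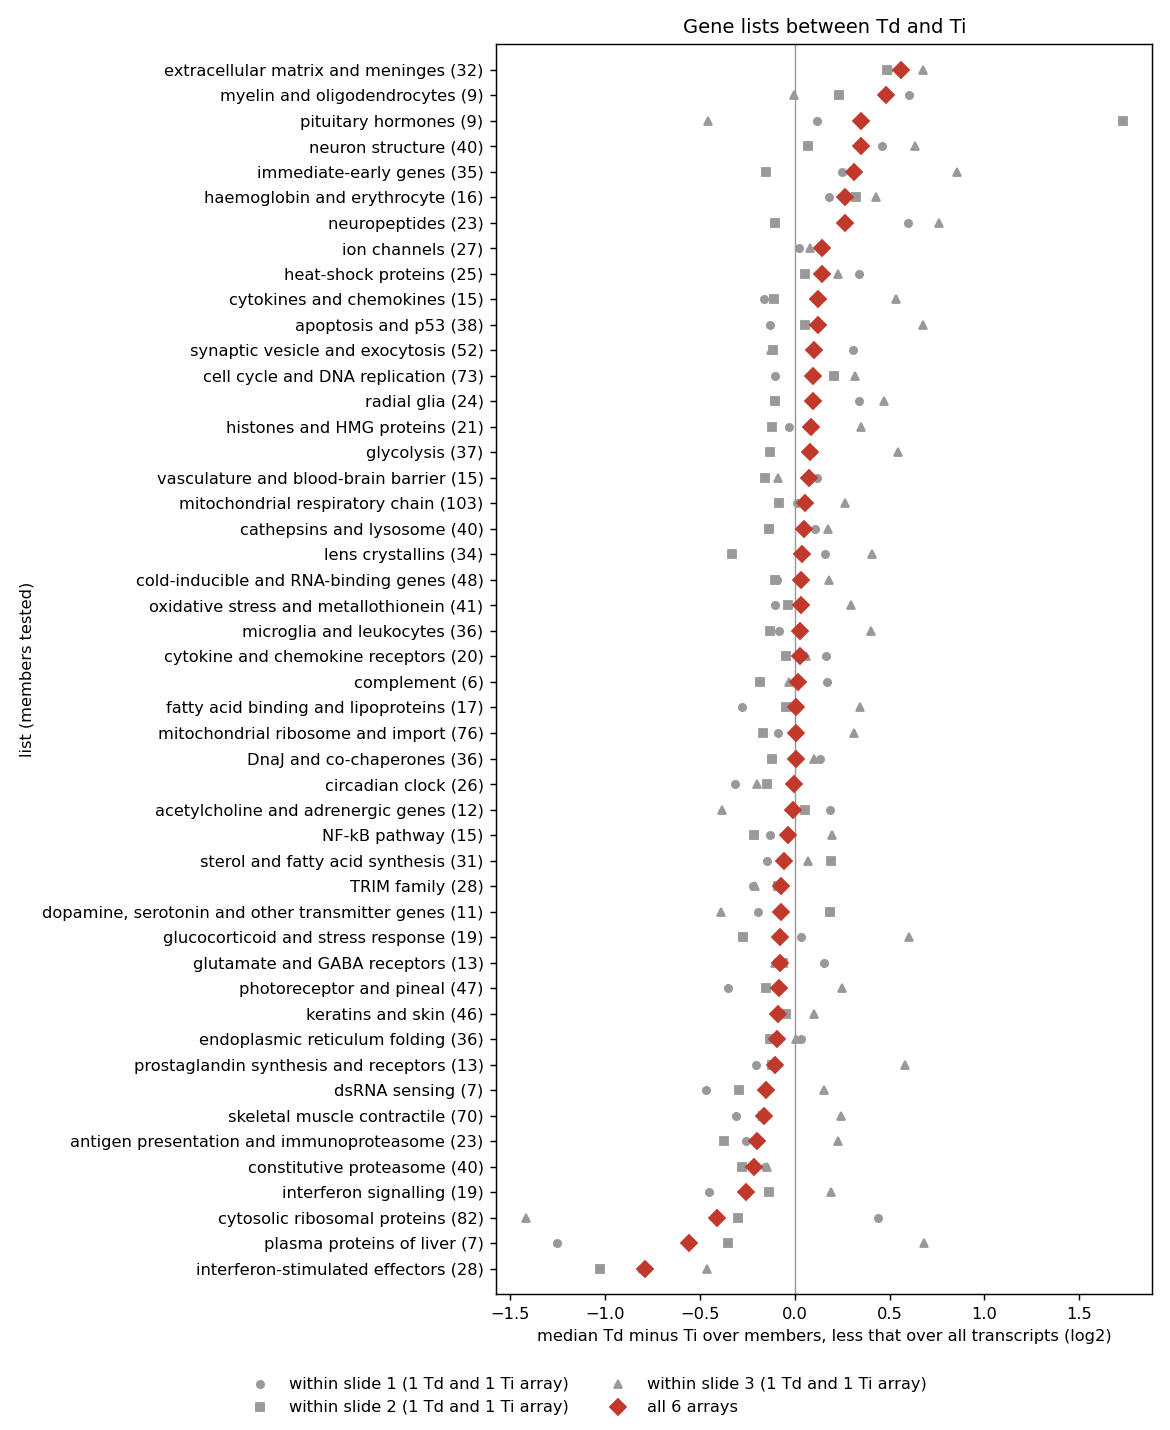
Median difference Td minus Ti over the tested members of each list, less the median over all transcripts (x axis, log2), for 48 lists (y axis, number of tested members in parentheses). Red diamonds are all 6 arrays and grey symbols the 3 slides taken alone; interferon-stimulated effectors lie at -0.79 and extracellular matrix at 0.56, and the slides of the pituitary list run from -0.46 to 1.73.

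Interferon-stimulated effectors were lower in Td than in Ti as a group, relative to all transcripts. Of the 41 on the array 28 were tested, their median difference was -0.57 (relative to all transcripts -0.79), and 4 of 28 lay above the median of all transcripts. None was higher and 5 were lower at an unadjusted p under 0.05, and 7 had all 3 Td arrays below all 3 Ti arrays, where the shares over all transcripts were 1.64% and 1.9%. The relative median was -0.81, -1.03 and -0.46 in slides 1, 2 and 3. Without Ti replicate 3 it was -1.12, and 9 of the 28 were lower at p under 0.05, against 1.21% of all transcripts. The sign of the unadjusted median depended on the scaling. With arrays scaled to the 50th percentile the effector median was 0.21, beside 0.99 over all transcripts. In that setting 1 of the 28 effectors was higher and 2 were lower at p under 0.05. Of all 14980 transcripts 2039 were higher and 70 lower there. The median level of these genes was -0.74 in C, 0.25 in Sd, 1.73 in Ti and 0.99 in Td, so both dsRNA groups lay above the groups that received none.

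The viperin gene rsad2, whose product blocks the replication of many RNA viruses, read 1.82, 1.66 and 1.68 on the Ti arrays and -0.17, -2.35 and -1.09 on the Td arrays. The Ti arrays lay close together and above every Td array, and no C or Sd array was well above background (means -3.32 and -2.94). The difference was -2.92 ± 0.56 (SE, log2; unadjusted p = 0.000208, adjusted p = 0.633). It was -2.94 without Ti replicate 3. The Mx genes encode dynamin-like GTPases that trap viral nucleoproteins. mxe was at 2.64, 2.97 and 3.93 in Ti and at 1.79, 0.90 and 1.54 in Td, a difference of -1.77 ± 0.40 (unadjusted p = 0.000789), against -2.43 in C and -2.33 in Sd. mxa was at 2.27, 2.63 and 1.75 in Ti and 0.91, 0.71 and 1.19 in Td (-1.28 ± 0.45, unadjusted p = 0.0142). mxb was at 3.96, 4.43 and 3.43 in Ti and 2.29, 2.17 and 2.95 in Td (-1.47 ± 0.72, unadjusted p = 0.0624), and mxc differed by -0.83 ± 0.42 (unadjusted p = 0.072). In mxa, mxb and mxe the groups did not overlap, and all Ti and Td arrays lay above the C mean.

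ifit8, of the family that binds foreign RNA ends, was well above background on 2 Ti and 2 Td arrays, and on 1 array each of C and Sd. Its levels were 2.16, 2.71 and 1.56 in Ti and 0.01, -3.74 and -0.39 in Td, and the difference of -3.52 ± 1.14 (unadjusted p = 0.00935) rests in part on 1 very dim Td value. lgals3bp.3, a galectin-3 binding protein gene, was bright on every array, at 5.48, 5.93 and 5.41 in Ti and 4.67, 4.18 and 4.95 in Td (-1.004 ± 0.42, unadjusted p = 0.0354), with means of 0.33 in C and 2.49 in Sd. ifi44c2 was at 1.73, 1.93 and 1.04 in Ti and 0.99, 0.35 and 0.75 in Td (-0.87 ± 0.59, unadjusted p = 0.168). The 2 effectors of highest signal did not follow this order array by array. ifi27.1 read 7.92, 8.52 and 9.66 in Ti and 8.30, 7.94 and 8.34 in Td (-0.50 ± 0.46, unadjusted p = 0.293), and ifi27.2 read 7.55, 8.32 and 6.97 against 6.90, 7.45 and 7.84 (-0.21 ± 0.42, unadjusted p = 0.621). In ifi27.1 and ifi27.2 the groups overlapped and both were well above the C means of 5.22 and 3.29. The member highest in Td was cd9b, a tetraspanin gene, at 1.24. Probes of near-identical copies, such as those of the mx, ifi27, lgals3bp and tubulin genes, can bind each other's RNA, which was not checked.

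The signalling genes upstream of the effectors were less uniform. Of 24 interferon signalling genes on the array 19 were tested, with a median of -0.04 (relative -0.26; slides -0.45, -0.14 and 0.19); 3 were lower and none higher at p under 0.05, where 1.64% and 4.53% of all transcripts were. The relative median was -0.34 without Ti replicate 3, -0.02 after quantile normalization and -1.14 over the 7 members kept by a filter on all 6 arrays. irf7, the transcription factor that amplifies interferon production, stood at 4.52, 5.22 and 3.90 in Ti and at 2.65, 2.77 and 3.28 in Td, with -1.02 in C and 0.75 in Sd. The groups of irf7 did not overlap, and the difference was -1.64 ± 0.60 (unadjusted p = 0.0174; without Ti replicate 3, -1.97). irf10 stood at 0.10, -0.46 and 2.58 in Ti and at -1.17, -1.95 and -1.64 in Td (-2.33 ± 0.61, unadjusted p = 0.00239). The highest array for irf10 was Ti replicate 3, and without it the difference was -1.41. socs1a, a feedback inhibitor of cytokine receptors, differed by -0.99 ± 0.48 (unadjusted p = 0.0607). irf1b (0.00, unadjusted p = 1) and irf9 (-0.19, unadjusted p = 0.602) were near 0, and irf8, a factor of macrophage development, was the highest of the list at 0.80.

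**Figure D2:**
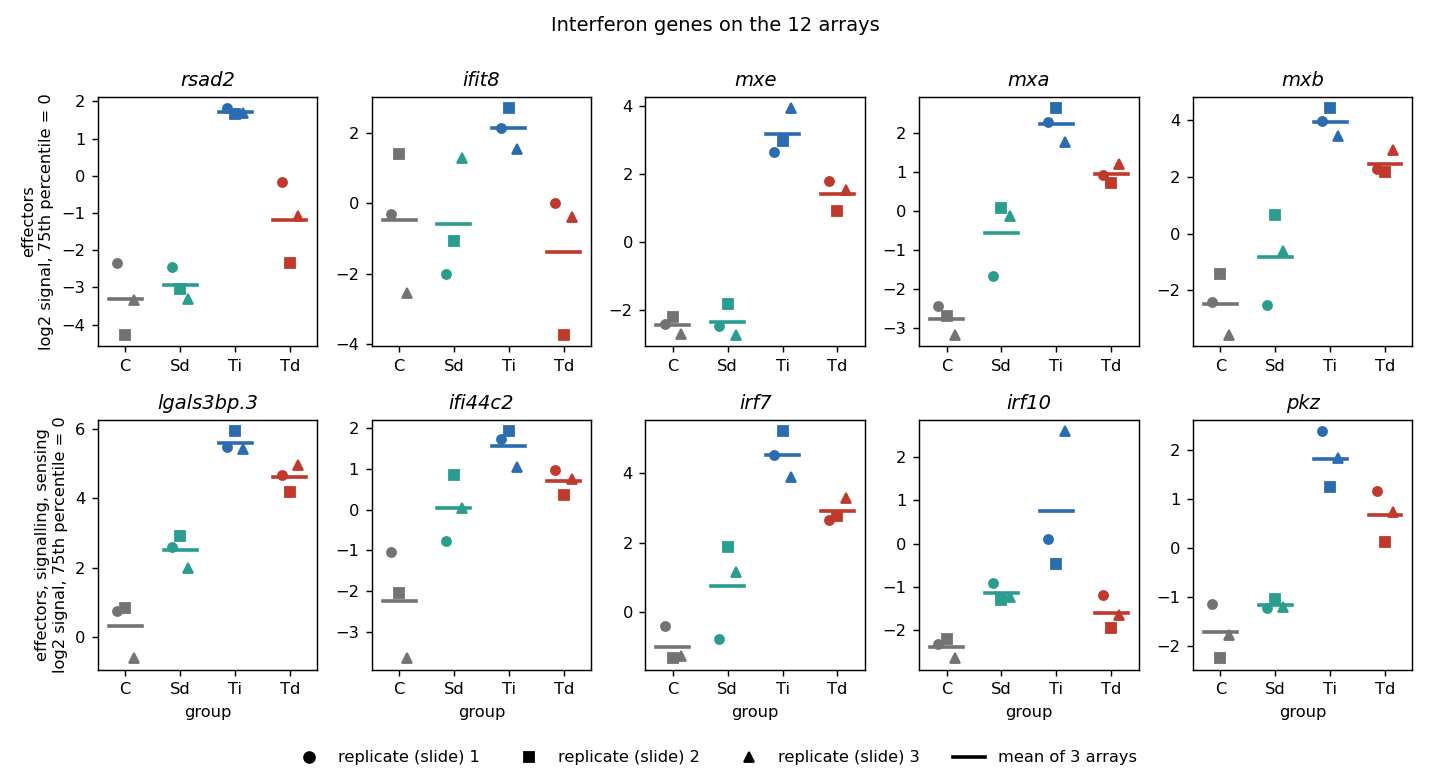
Log2 signal, with the 75th percentile of each array at 0 (y axis), of 10 interferon genes in the groups C, Sd, Ti and Td (x axis). Symbols are single arrays by slide and horizontal bars means of 3 arrays. In each panel every Ti array lies above every Td array, which was set by the choice of genes. The effectors drawn are the 7 of 28 tested whose groups did not overlap, and irf7, irf10 and pkz did not overlap either.

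Of the 12 dsRNA sensing genes on the array 7 were tested, with a relative median of -0.15 and values on both sides of 0. The gene pkz, of a Z-DNA binding kinase found in fish, was at 2.38, 1.24 and 1.84 in Ti and 1.16, 0.12 and 0.74 in Td, with means of -1.72 in C and -1.15 in Sd. The pkz groups did not overlap (-1.14 ± 0.40, unadjusted p = 0.0136). The receptor gene tlr3 differed by -0.01 (unadjusted p = 0.981), and mavs, the mitochondrial adaptor of the RIG-I-like helicases, was 0.42 higher in Td. Of 28 tested TRIM genes, a family with many antiviral ubiquitin ligases, 2 were lower and none higher at p under 0.05. Over all transcripts 1.64% were lower and 4.53% higher. The relative median of the TRIM genes was -0.07 (-0.05 without Ti replicate 3). trim2a read 3.93, 4.64 and 4.65 in Ti and 3.29, 3.07 and 3.44 in Td (-1.15 ± 0.33, unadjusted p = 0.00444), and btr29 differed by -0.94 ± 0.35 (unadjusted p = 0.0203). Antigen presentation and immunoproteasome genes (23 tested) had a relative median of -0.20 and none past p of 0.05; the relative median was -0.48 without Ti replicate 3. Of 40 tested genes of the constitutive proteasome, 9 lay above the median of all transcripts. Among them psmf1, which encodes a proteasome inhibitor, was at 3.53, 4.08 and 3.94 in Ti and 2.66, 2.71 and 3.11 in Td, groups that did not overlap (-1.03 ± 0.33, unadjusted p = 0.00866). Cytokines and chemokines (15 tested, relative median 0.12) and complement genes (6 tested) had none past p of 0.05 in either direction. Of 13 prostaglandin genes, the pathway through which fever is set in mammals, the synthase gene ptgesl was 0.72 higher (unadjusted p = 0.0425) and the transporter gene slco2a1 differed by -1.44 (unadjusted p = 0.045) but took the opposite sign after normexp correction. These were the 1 higher and 1 lower of the 13 at p under 0.05, against 4.53% and 1.64% of all transcripts.

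The heat-shock list as a whole lay near the median of all transcripts, and the larger differences were those of a few members. Of 30 on the array 25 were tested, with a median of 0.36 (relative 0.14; slides 0.34, 0.06 and 0.23). The relative median was 0.003 after quantile normalization, 0.03 with array weights, 0.16 without Ti replicate 3 and between 0.10 and 0.30 with any 1 of the 6 arrays left out. At p under 0.05, 3 were higher and none lower, where 4.53% of all transcripts were higher. Of these 3, hspa1b and hsp90aa1.1 passed the filter on dim probes only through the Td arrays. The filter thus favoured higher Td values in them, and their p-values are no support. The median level of the 25 genes was 1.58 in C, 2.91 in Sd, 1.103 in Ti and 1.80 in Td, so the saline group with the gradient stood highest. hspa1b, an inducible Hsp70 gene, was not well above background on any Ti array, with measured values of -4.86, -3.36 and -1.28, and stood at -0.52, 0.06 and 1.08 in Td and at means of 1.57 in C and 3.76 in Sd. Its adjusted fold, Td over Ti, was 6.09 (measured difference 3.37 ± 0.88, unadjusted p = 0.00232, adjusted p = 0.738). Here and below, the adjusted fold sets the mean of the brighter group against an adjusted mean of the dim group. In that mean each array counts at its own value or at the lowest signal well above background on that array, whichever is larger. This fold does not bound the spread between arrays. Nor is it a minimum, since that lowest signal is taken over all probes and is no detection limit of a single gene. With 1 array left out the measured difference of hspa1b ran from 2.53 to 4.32. hspb1, the gene of the small chaperone Hsp27, was at 3.64, 3.37 and 2.51 in Ti and 4.35, 5.75 and 5.74 in Td, with means of 5.23 in C and 7.13 in Sd. The Td and Ti arrays of hspb1 did not overlap, with a difference of 2.11 ± 0.45 (unadjusted p = 0.000537, adjusted p = 0.633) and of 1.77 without Ti replicate 3.

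hsp90aa1.1, an inducible Hsp90 also used in muscle, was not well above background on the Ti arrays (-3.91, -3.30 and -1.26) and was at -1.52, -0.86 and -0.38 in Td. Its adjusted fold, Td over Ti, was 2.62 (unadjusted p = 0.0219, adjusted p = 0.756). serpinh1b, the collagen chaperone Hsp47, was at 0.25, 0.63 and -0.20 in Ti and 2.47, 2.12 and 2.19 in Td, with 0.33 in C and 3.79 in Sd. The serpinh1b groups stood apart by 2.04 ± 1.00 (unadjusted p = 0.065), with the spread estimated over all 4 groups. hsp70l, another inducible Hsp70 gene, was at 0.99, 0.69 and 0.92 in Ti and 2.60, 1.17 and 1.85 in Td (1.01 ± 0.88, unadjusted p = 0.271), and hspe1, the mitochondrial co-chaperonin, was 0.57 ± 0.28 higher (unadjusted p = 0.0609). The constitutive chaperones differed less: hsp90ab1 by -0.14 ± 0.31 (unadjusted p = 0.658), the endoplasmic hspa5 by 0.11 ± 0.29 (unadjusted p = 0.714) and the mitochondrial hspd1 by 0.32 ± 0.40 (unadjusted p = 0.437). hspa8, the constitutive Hsc70, read 4.07 on Ti replicate 3 and between 0.74 and 1.76 on the other 5 arrays.

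DnaJ and co-chaperone genes had a relative median of 0.00 over 36 tested. At p under 0.05, 3 were higher and none lower, against 4.53% and 1.64% of all transcripts. fkbp4, an immunophilin partner of Hsp90, was among the least variable genes shown here, at 4.38, 4.13 and 4.26 in Ti and 5.17, 5.14 and 5.29 in Td, with C at 4.89 and Sd at 5.61. Every fkbp4 value of Td lay above every Ti value (0.94 ± 0.29, unadjusted p = 0.00694; again 0.94 without Ti replicate 3). unc45b, the myosin chaperone, was at 0.19, -0.26 and 0.70 in Ti and 0.66, 1.75 and 3.00 in Td (1.60 ± 0.57, unadjusted p = 0.0159), and st13, which joins Hsp70 and Hsp90, was 0.92 ± 0.34 higher (unadjusted p = 0.0202). Over 48 tested cold-inducible and RNA-binding genes the relative median was 0.04. At p under 0.05, 4 were higher and 1 lower, against 4.53% and 1.64% of all transcripts, and none of the 48 passed without Ti replicate 3. The cold-inducible RNA-binding proteins cirbpa and cirbpb differed by -0.16 (unadjusted p = 0.641) and -0.42 (unadjusted p = 0.459). Of 36 endoplasmic reticulum folding genes, pdia8, a disulphide isomerase gene, was the 1 past p of 0.05, at 1.08 ± 0.30 (unadjusted p = 0.00324), and was well above background on 1 Ti array. A single call among 36 is a smaller share than the 4.53% higher over all transcripts.

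Extracellular matrix and meningeal genes, which code for collagens, proteoglycans and their proteases made mainly by fibroblasts and the brain's coverings, were higher in Td. Of 45 on the array 32 were tested, with a median of 0.78 (relative 0.56), and 28 of the 32 lay above the median of all transcripts. At p under 0.05, 14 were higher and none lower, and in 15 all 3 Td arrays lay above all 3 Ti arrays, where the shares over all transcripts were 4.53% and 10.5%. The relative median was 0.49, 0.49 and 0.67 in the 3 slides and between 0.48 and 0.71 with any 1 of the 6 arrays left out. Without Ti replicate 3, 12 of the 32 were higher at p under 0.05, against 3.16% of all transcripts. The list's median level was 0.55 in C, 1.74 in Sd, 0.44 in Ti and 1.21 in Td, so the 2 gradient groups that received an injection stood above the other two. In RNA from whole brains, fewer cells of a type and less RNA per cell cannot be told apart, and how much of the coverings came with each brain was not recorded in the sources used here.

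col1a1b, a chain of type I collagen, was at 5.04, 4.69 and 4.86 in Ti and 6.66, 6.04 and 5.998 in Td, with C at 4.96 and Sd at 6.71. The Ti arrays of col1a1b lay on both sides of the C mean and all Td arrays lay above them (1.37 ± 0.32, unadjusted p = 0.000952, adjusted p = 0.633; 1.37 without Ti replicate 3). Its copy col1a1a read 4.18, 3.51 and 3.62 against 5.41, 4.47 and 4.40 (0.99 ± 0.42, unadjusted p = 0.0362), and the partner chain col1a2 read 4.01, 4.16 and 4.52 against 5.61, 4.68 and 5.04 (0.88 ± 0.41, unadjusted p = 0.0545). All 3 chains of type I collagen were thus non-overlapping. Small leucine-rich proteoglycans, which space collagen fibrils, were next. lum (lumican) was at 1.54, 1.26 and 0.30 in Ti, where 2 arrays were well above background, and 3.17, 1.93 and 3.25 in Td (1.75 ± 0.52, unadjusted p = 0.00533). Without Ti replicate 3 the difference of lum was 1.39. ogna (osteoglycin) was at -1.35, -1.32 and -1.10 in Ti, where 1 array was well above background, and 0.01, 0.49 and -0.29 in Td (1.33 ± 0.32, unadjusted p = 0.00141). fmoda (fibromodulin), which was not on the list, was at -0.35, -0.06 and -0.72 in Ti and 0.69, 1.79 and 1.52 in Td (1.71 ± 0.40, unadjusted p = 0.001). In lum, ogna and fmoda the C means of 1.06, -0.78 and -0.38 lay on the Ti side and the Sd means of 3.01, 0.73 and 1.33 on the Td side.

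Among matricellular genes, thbs4b (thrombospondin) read 0.37, 0.51 and -1.10 in Ti and 1.40, 1.62 and 1.39 in Td (1.54 ± 0.41, unadjusted p = 0.00291), and sparc read 2.81, 2.15 and 1.33 in Ti and 3.39, 3.16 and 3.16 in Td (1.14 ± 0.36, unadjusted p = 0.00737). Ti replicate 3 was the lowest array for both thbs4b and sparc, and without it the differences were 1.03 and 0.76. Of the matrix proteases, mmp2 (gelatinase A) was 1.00 ± 0.33 higher (unadjusted p = 0.0104) and mmp14b, which activates it in mammals, 1.11 ± 0.35 higher (unadjusted p = 0.0072), with 0.68 and 0.70 without Ti replicate 3. The fibrillar collagens col11a2 (1.23, unadjusted p = 0.00679) and col5a2a (1.18, unadjusted p = 0.00755) were also higher. timp2a, a protease inhibitor and with col1a1b the brightest of the list, was at 4.98, 5.63 and 5.59 in Ti and 5.58, 5.82 and 6.07 in Td and overlapped by a small margin (0.42 ± 0.30, unadjusted p = 0.188). Of the 32 members 3 were lower in Td, the farthest being col11a1a at -2.49 ± 1.15 (unadjusted p = 0.0517), with Ti values of -1.83, 1.43 and 2.04 that did not agree among themselves and 1 Td array well above background.

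**Figure D3:**
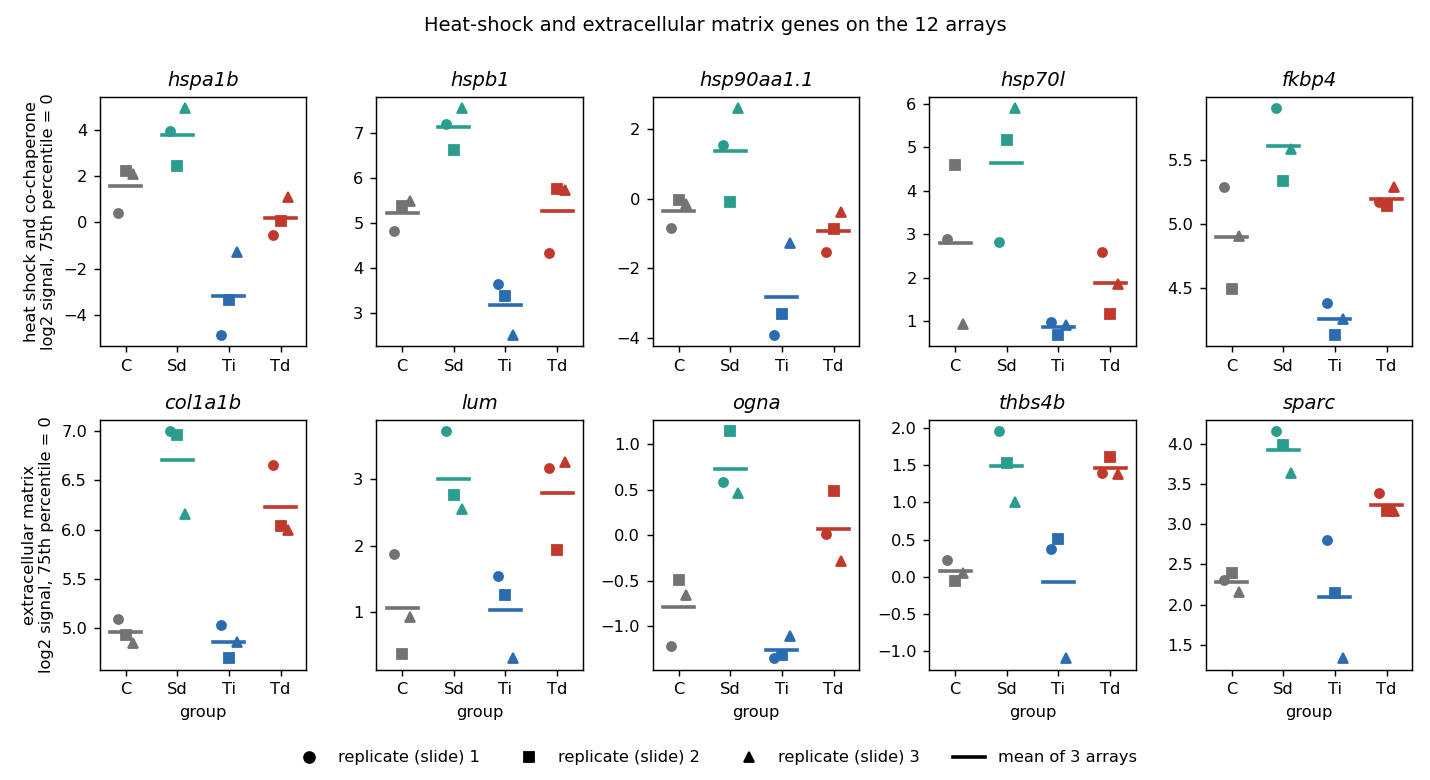
Log2 signal, with the 75th percentile of each array at 0 (y axis), of 5 heat-shock or co-chaperone genes (top) and 5 extracellular matrix genes (bottom) in the 4 groups (x axis). Symbols are single arrays by slide and bars means of 3 arrays. The Td arrays lie above the Ti arrays in each panel, overlapping in none except hsp90aa1.1, where Ti replicate 3 at -1.26 lies above the Td array at -1.52. The genes drawn were chosen with their values known, so this order was largely set by the choice.

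Genes of neuron structure (tubulins, stathmins, collapsin response mediators and adhesion proteins of axons) were higher in Td too. Without Ti replicate 3 they lost more members past p of 0.05 than the matrix list did. Of 50 on the array 40 were tested, with a median of 0.57 (relative 0.35; slides 0.46, 0.07 and 0.64), and 33 of the 40 lay above the median of all transcripts. At p under 0.05, 10 of the 40 were higher and none lower, where 4.53% and 1.64% of all transcripts were; without Ti replicate 3 the relative median was 0.29 and 4 of the 40 were higher, against 3.16% of all transcripts. stmn1b, a regulator of microtubule turnover, was at 3.61, 3.71 and 2.06 in Ti and 4.45, 4.49 and 4.51 in Td, with C at 4.57 and Sd at 4.33, so Ti was the group that stood apart. The stmn1b difference was 1.36 ± 0.39 (unadjusted p = 0.00442) and 0.82 without Ti replicate 3 (unadjusted p = 0.0052). tubb2, a beta-tubulin gene, was at 0.90, 0.98 and -0.02 in Ti and 2.06, 1.36 and 1.55 in Td (1.04 ± 0.34, unadjusted p = 0.00931). tuba2, an alpha-tubulin gene, was at 3.05, 3.23 and 1.72 in Ti and 3.89, 3.68 and 3.90 in Td (1.16 ± 0.39, unadjusted p = 0.0112). The groups of tubb2 and tuba2 did not overlap, and without Ti replicate 3 the differences were 0.72 and 0.68.

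dpysl5a, a collapsin response mediator of axon growth, was at 2.52, 3.04 and 2.41 in Ti and 3.51, 3.53 and 3.59 in Td (0.89 ± 0.31, unadjusted p = 0.0134), and cntn1b, a contactin of the axon surface, was 1.00 ± 0.39 higher (unadjusted p = 0.0234). uchl1 (1.46, unadjusted p = 0.0352) and dpysl2b (1.04, unadjusted p = 0.0477) rested on Ti replicate 3, where both were near -1.2, below the lowest signal that array registered as well above background; without it they differed by 0.70 (unadjusted p = 0.186) and 0.43 (unadjusted p = 0.235). The brightest tubulins overlapped between groups: tuba1c was 0.47 higher (unadjusted p = 0.164), and tuba8l4 read 8.61 on Ti replicate 3 against 7.33 to 7.69 on the other arrays. Pan-neuronal markers overlapped as well, with snap25a at 0.34 ± 0.34 (unadjusted p = 0.328), stmn2b at 0.13 ± 0.51 (unadjusted p = 0.805) and elavl4 at 0.59 ± 0.47 (unadjusted p = 0.235). Genes of synaptic vesicles and exocytosis were gathered by name, so that other Rab genes such as rab30 and rab32a were also counted. Of 52 tested, 4 were higher and none lower at p under 0.05 (relative median 0.10). Over all transcripts 4.53% were higher and 1.64% lower, and none of the 52 passed without Ti replicate 3. Acetylcholine and adrenergic genes (12 tested, relative median -0.01) had none past p of 0.05.

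Neuropeptide genes had a relative median of 0.26 over 23 tested, with 21 above the median of all transcripts, but the slides gave 0.60, -0.10 and 0.76. At p under 0.05, 4 of the 23 were higher and none lower, against 4.53% and 1.64% of all transcripts. penka, the enkephalin precursor, was at 1.49, 2.18 and 0.64 in Ti and 2.37, 2.39 and 2.70 in Td (1.05 ± 0.37, unadjusted p = 0.0153). cart2, an appetite-regulating peptide, was at 1.92, 2.68 and 1.70 in Ti and 2.87, 2.78 and 3.17 in Td (0.84 ± 0.35, unadjusted p = 0.032). uts1 (urotensin I, 0.90, unadjusted p = 0.0183) and vip (0.89, unadjusted p = 0.0274) had the same direction. In penka, cart2, uts1 and vip the Td arrays lay above the Ti arrays, Ti replicate 3 was the lowest of the 6, and without it the differences were 0.65, 0.64, 0.61 and 0.60 with unadjusted p from 0.0607 to 0.105; the relative median of the list was then 0.09. The somatostatin genes sst1.1 (0.45 ± 0.31, unadjusted p = 0.167) and sst6.1 (0.58 ± 0.42, unadjusted p = 0.19) overlapped between groups.

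Immediate-early genes, transcribed within minutes of neuronal activity or stress, had a relative median of 0.31 over 35 tested (slides 0.25, -0.15 and 0.86), with 5 higher and none lower at p under 0.05 (4.53% and 1.64% over all transcripts). npas4a, a neuronal factor induced by calcium entry, was at -1.80, -2.56 and -0.71 in Ti and -0.38, -0.63 and 1.18 in Td (1.75 ± 0.63, unadjusted p = 0.0166), against 0.19 in C and -1.91 in Sd. fosab read -0.92, -0.87 and -0.76 in Ti and 0.11, -0.18 and 4.60 in Td (2.36 ± 1.06, unadjusted p = 0.046), and btg2 read 1.05, 1.31 and 0.06 against 1.25, 1.498 and 3.83 (1.39 ± 0.60, unadjusted p = 0.0394). Td replicate 3 was far above the other 2 Td arrays in fosab and btg2, and it was also the highest array for junba (5.33 against 3.56 to 4.11) and klf2a (5.75 against 3.02 to 4.24). Without Td replicate 3 the relative median of the list was 0.04, and without Ti replicate 3 it was 0.21. In the latter fit 1 of the 35 was higher at p under 0.05, against 3.16% of all transcripts.

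Of the glial and immune cell lists, myelin lay farthest from the median of all transcripts. Of 9 tested myelin and oligodendrocyte genes 8 lay above the median of all transcripts (relative median 0.48; 0.28 without Ti replicate 3; slides 0.60, 0.23 and -0.01). plp1b, a myelin proteolipid gene, was at 3.76, 3.99 and 2.01 in Ti and 4.31, 4.06 and 4.39 in Td (1.00 ± 0.48, unadjusted p = 0.0587), with C at 4.46 and Sd at 3.96. olig2, the oligodendrocyte lineage factor, was at 0.70, 1.05 and -1.27 in Ti and 1.06, 1.49 and 1.55 in Td (1.20 ± 0.50, unadjusted p = 0.0332; 0.49 without Ti replicate 3, unadjusted p = 0.135). The myelin genes cldnk (0.70, unadjusted p = 0.0953) and aspa (0.56, unadjusted p = 0.0812) overlapped between groups. The 1 member lower in Td was mpz, at -0.08 ± 0.79 (unadjusted p = 0.918). Radial glia genes (24 tested) had a relative median of 0.09 and none past p of 0.05, gfap being 0.91 ± 0.43 higher (unadjusted p = 0.0531) and slc1a2b 0.31 ± 0.30 (unadjusted p = 0.328). Microglia and leukocyte genes (36 tested) had a relative median of 0.03, with fcer1gl the 1 past p of 0.05 (1.34, unadjusted p = 0.0311). That is a smaller share than the 4.53% higher over all transcripts. Their median level was 0.59 in C and 1.86, 1.71 and 1.80 in Sd, Ti and Td, so C was the lowest group and both dsRNA groups lay near the saline group. The macrophage gene mpeg1.1 differed by 0.09 (unadjusted p = 0.744) and the leukocyte gene coro1a by -0.02 (unadjusted p = 0.943). The markers lcp1 (0.57, unadjusted p = 0.196), csf1ra (0.34, unadjusted p = 0.428) and spi1b (0.34, unadjusted p = 0.512) were higher in Td and overlapped between groups. Of these, csf1ra passed the filter only through the Td arrays.

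Hormones of the pituitary, a gland that can come with the brain at dissection or stay behind, were higher in Td on some slides only. Of 21 on the array 9 were tested, with a relative median of 0.35 and slide values of 0.12, 1.73 and -0.46; it was 0.66 without Ti replicate 3, -0.09 without Td replicate 2 and -0.01 after normexp correction. pomca, the precursor of ACTH and melanocyte-stimulating hormone, was at 0.09, 0.59 and 1.72 in Ti and 3.11, 3.09 and 1.95 in Td (1.92 ± 0.56, unadjusted p = 0.00482; C 0.05, Sd 1.47). smtlb, a somatolactin made in the pituitary, was not well above background on any Ti array (-4.39, -3.26 and -1.27). It stood at -0.89, 0.30 and -0.43 in Td, with an adjusted fold of 4.17 (unadjusted p = 0.0018, adjusted p = 0.676). gh1, growth hormone, was likewise not well above background in Ti (-4.42, -2.07 and 0.80). It was at 0.63, 1.52 and 0.37 in Td, with an adjusted fold of 6.33 (unadjusted p = 0.0385, adjusted p = 0.756). In gh1 the dim reading of Ti replicate 3 lay above 2 of the Td arrays, and with 1 array left out the measured difference ran from 1.48 to 4.09 (unadjusted p up to 0.201). Both smtlb and gh1 passed the filter only through the Td arrays. The filter thus favoured higher Td values in them, and their p-values are no support. Prolactin (prl) exceeded background clearly on 2 arrays and was not tested. Erythrocyte genes had a relative median of 0.26 over 16 tested (0.18 without Ti replicate 3), with 4 higher and none lower at p under 0.05 where 4.53% and 1.64% of all transcripts were. Without Ti replicate 3, 2 of the 16 were higher, against 3.16% of all transcripts. hemgn, a nuclear factor of red cell precursors, was at 2.27, 1.95 and 0.94 in Ti and 2.61, 3.09 and 2.95 in Td (1.16 ± 0.36, unadjusted p = 0.00746; 0.77 without Ti replicate 3), and the haem-degrading enzyme gene blvrb read 1.23, 0.44 and 0.39 against 1.84, 1.52 and 2.52 (1.27 ± 0.37, unadjusted p = 0.00476). Groups did not overlap in hemgn or blvrb, and the mean of each was higher in Sd (3.16 and 2.54) than in Td.

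**Figure D4:**
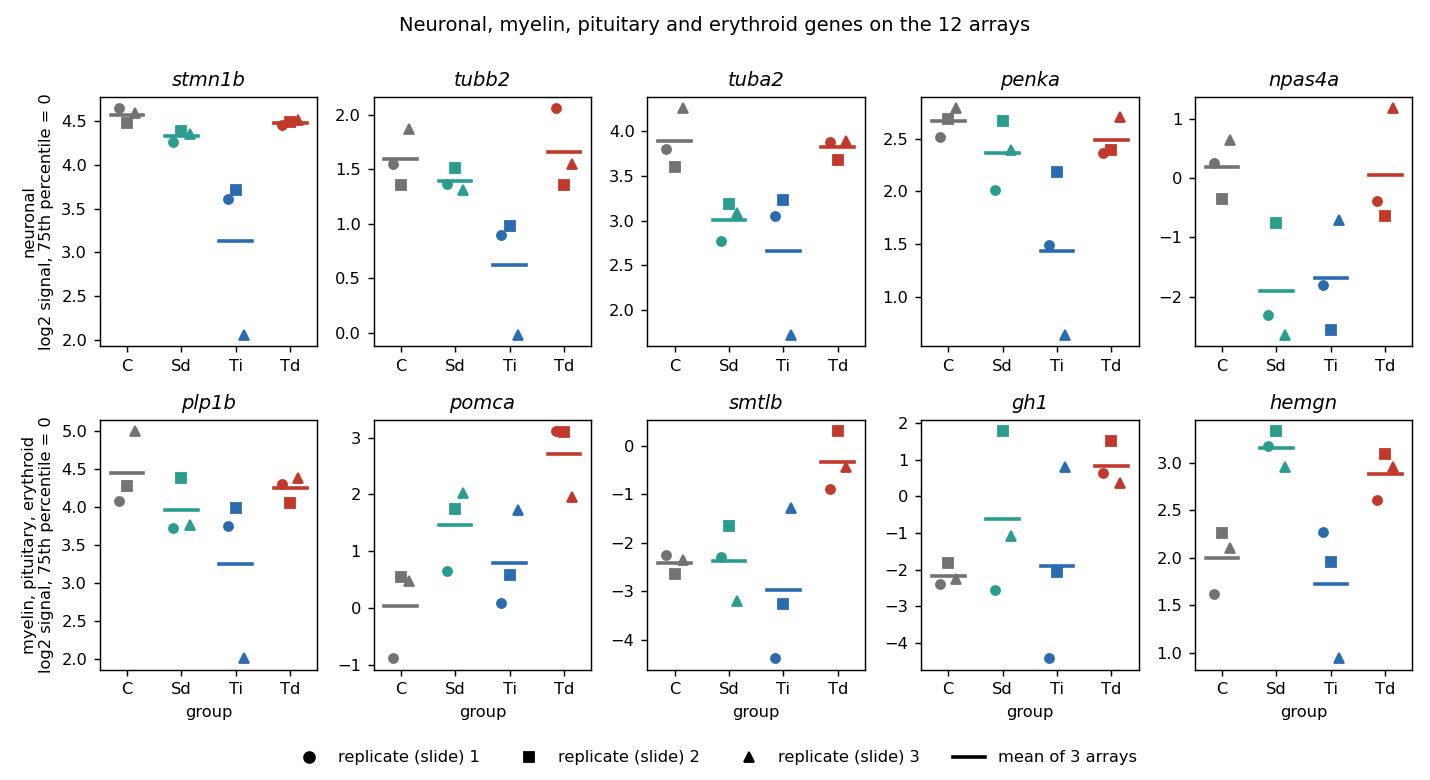
Log2 signal, with the 75th percentile of each array at 0 (y axis), of 5 neuronal genes (top) and 5 myelin, pituitary and erythroid genes (bottom) in the 4 groups (x axis). Symbols are single arrays by slide and bars means of 3 arrays; Ti replicate 3 (triangle) is the lowest Ti array in stmn1b, tubb2, tuba2, penka, plp1b and hemgn and the highest in npas4a, pomca, smtlb and gh1.

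Tissues outside the brain were also visible on the arrays. Muscle contractile genes (70 tested) had a relative median of -0.16, with 3 higher and 2 lower at p under 0.05, near the shares of 4.53% and 1.64% over all transcripts, and their defining genes were bright in both groups: ckma (muscle creatine kinase) was at 7.35, 7.33 and 5.91 in Ti and 7.35, 7.29 and 7.69 in Td (0.58 ± 0.44, unadjusted p = 0.22), and mylpfa, a fast myosin light chain, differed by -0.50 ± 0.32 (unadjusted p = 0.14). The skin keratin krt5 differed by -0.17 ± 0.72 (unadjusted p = 0.817), with 8.70 on Ti replicate 3. Another skin keratin, krt4, was at 6.20, 6.46 and 6.15 in Ti and 6.63, 6.91 and 6.69 in Td. The groups of krt4 did not overlap (0.47 ± 0.30, unadjusted p = 0.144). Photoreceptor and pineal genes (47 tested) had a relative median of -0.08, with 2 higher and 3 lower at p under 0.05, against 4.53% and 1.64% of all transcripts. The rod gene gnat1 (0.14, unadjusted p = 0.816) and the cone gene gnat2 (0.15, unadjusted p = 0.706) overlapped, while arr3a, a cone arrestin, was at 4.01, 4.78 and 4.36 in Ti and 2.19, 2.46 and 2.83 in Td (-1.89 ± 0.56, unadjusted p = 0.00569), groups more than 1 log2 unit apart. Of 35 liver plasma protein genes on the array 7 were tested. Their relative median was -0.56 with all arrays, -1.25, -0.35 and 0.68 by slide and 0.38 without Ti replicate 1, where kng1 read 4.04 against -1.23 to 0.43 elsewhere; rbp4, the brightest of them, differed by 0.06 (unadjusted p = 0.833). The hepatic genes fgb and apoa1b exceeded background clearly on 1 and 0 arrays.

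Cytosolic ribosomal protein genes, gathered by name so that the S6 kinase genes rps6ka3a, rps6kal and rps6kb1b were also counted, had a relative median of -0.41 over 82 tested, with 74 below the median of all transcripts but none past p of 0.05 in either direction and none without overlap. The slides gave 0.44, -0.30 and -1.42, and without Ti replicate 3 the relative median was -0.03. Single genes followed that array: rps25 read 10.59 on it against 8.36 to 9.45 on the other 5 (-0.05 ± 0.53, unadjusted p = 0.924), whereas rpl8 read 7.34 against 7.63 to 8.12 (0.36 ± 0.28, unadjusted p = 0.211). Respiratory chain genes (103 tested) had a relative median of 0.05, with 3 higher and none lower at p under 0.05, a smaller share than the 4.53% higher over all transcripts; ndufa1, a subunit of complex I, was at -0.12, 0.05 and -0.65 in Ti and 0.92, 1.63 and 1.21 in Td (1.49 ± 0.33, unadjusted p = 0.000768). Circadian clock genes (26 tested) had a relative median of 0.00 with 2 higher and 2 lower at p under 0.05, against 4.53% and 1.64% of all transcripts. per2, which light induces in zebrafish, was at -1.43, -0.49 and -1.03 in Ti and -1.84, -2.65 and -4.62 in Td (-2.05 ± 0.61, unadjusted p = 0.00542), and nr1d1, a repressor of the clock loop, differed by -2.03 ± 0.69 (unadjusted p = 0.0128). bhlhe40 (1.26, unadjusted p = 0.0299) and csnk1e (1.33, unadjusted p = 0.0417) were higher, by 0.85 and 0.49 without Ti replicate 3.

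Among symbols with p under 0.01 and groups that did not overlap, the 10 with the largest differences upward included hspb1, pomca, lum and fmoda, given above, and hspa1b and smtlb, which were not well above background on any Ti array. plgrkt, a plasminogen receptor gene, was at -0.60, 0.39 and -0.92 in Ti and 1.15, 2.09 and 2.20 in Td (2.19 ± 0.47, unadjusted p = 0.000529), above both C (0.65) and Sd (0.16). actc2, an actin of striated muscle, was at 0.41, -0.39 and -1.004 in Ti and 2.28, 2.68 and 0.98 in Td (2.31 ± 0.57, unadjusted p = 0.00148), with 3.94 in Sd. mrpl14, a mitochondrial ribosome gene (2.05, unadjusted p = 0.00942), and zgc:122979 (1.78, unadjusted p = 0.0086) completed them. The 10 largest differences downward were mostly of dim transcripts. Besides rsad2 and ifit8 they were zp2.3, csad, stra6l, a2m2e, myl4, h1m, myod1 and cant1b, from -5.48 ± 1.65 for the egg coat gene zp2.3 to -2.72 ± 0.63 for cant1b. The egg coat gene zp2.3 read 4.79, 0.78 and 0.49 in Ti and -1.35, -4.39 and -4.63 in Td, and stra6l, a gene of vitamin A transport, read 0.33, 1.67 and -0.71 against -3.82, -1.84 and -3.66 (-3.54 ± 0.75, unadjusted p = 0.000484). Of these zp2.3, stra6l, csad, a2m2e, h1m, myl4 and cant1b were well above background on 1 Td array, and myod1 on 2, so the sizes of these differences rest on dim signals.

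Of the genes that the study followed by quantitative PCR, irf7 was lower in Td at an unadjusted p under 0.05, and sst1.1 and sst6.1 were not past it. The study's quantitative PCR compared maximal levels over a period after injection. For dsRNA-induced transcripts, irf7 among them, the study described an increase that depended on temperature. The irf7 difference here, at 24 h and under the labels of the scanner files, had the opposite sign. With the groups exchanged it would be positive. The acetylcholinesterase gene ache was at 0.67, 1.11 and 2.11 in Ti and 1.54, 1.74 and 2.02 in Td, groups that overlapped (0.47 ± 0.39, unadjusted p = 0.257). The scanner placed trim25 well above background on 2 arrays, sst2 on 0, and gig2p on 3 by one or the other of 2 probes with neither reaching the filter, so none of these genes was tested. The nicotinic receptor gene chrna7 was not analysed here.

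By array, the level of a list relative to all transcripts showed which arrays carried each difference. That level is the median over members of the deviation of each from its own mean over the 6 Td and Ti arrays, less the same median over all transcripts. The effector list was at 0.61, 0.69 and -0.03 in Ti and -0.41, -0.29 and -0.31 in Td, against -1.83, -1.58 and -2.36 in C and -1.25, -0.67 and -0.67 in Sd, so each group held a range of its own. The matrix list was at -0.20, -0.28 and -0.61 in Ti and 0.43, 0.29 and 0.21 in Td, with C at -0.33, -0.38 and -0.64 and Sd at 0.76, 0.80 and 0.69. The neuron structure list was at -0.15, 0.07 and -0.46 in Ti and 0.20, 0.09 and 0.19 in Td, so that the nearest Ti and Td arrays almost met, with C at 0.42, 0.27 and 0.66 and Sd at 0.11, 0.29 and 0.13. The heat-shock list was at -0.27, -0.31 and -0.04 in Ti and 0.17, -0.05 and 0.04 in Td, close together beside 0.73, 0.42 and 0.45 in C and 0.80, 1.05 and 0.39 in Sd. Each comparison shares arrays with the others, so these positions are given side by side and not tested against each other.

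**Figure D5:**
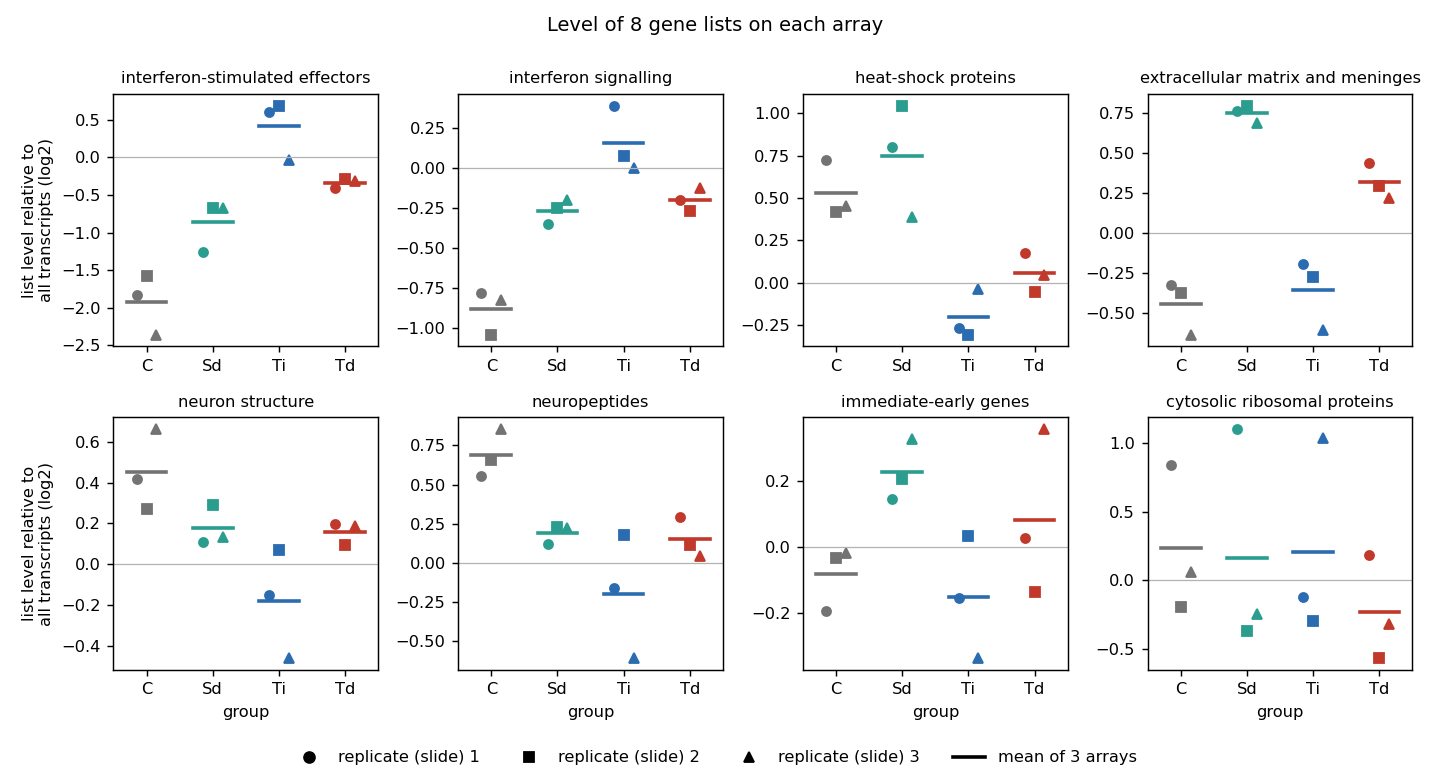
Level of 8 gene lists on each of the 12 arrays, relative to all transcripts (y axis, log2), in the groups C, Sd, Ti and Td (x axis). Symbols are single arrays by slide and bars means of 3 arrays; interferon-stimulated effectors lie at -0.03 to 0.69 in Ti and at -0.41 to -0.29 in Td, and cytosolic ribosomal proteins at 1.04 on Ti replicate 3 against -0.30 and -0.12 on the other Ti arrays.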

How the data were processed

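RNA of 12 brain pools was hybridised by the authors to 1-colour Agilent arrays (4 groups, 3 slides). The deposited scanner intensity of each spot came from Feature Extraction 10.7.3.1 per the file headers (the methods name another version and another array design), with background subtracted. The deposited series table holds the natural log of background-subtracted signals. Here log2 processed signals were scaled to the 75th percentile over features other than controls, outlier spots were left out, probes well above background on 3 or more of the 6 Td and Ti arrays were kept, and the median over probes of a gene was fitted with limma 3.58.1 (R 4.3.3; all 12 arrays, Td minus Ti, two-sided, Benjamini-Hochberg). Probes were named through RefSeq accessions. The fit was tested on simulated data. Members and lists were chosen with earlier results of these data known, so a list is described by its counts and median with no test.

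Named are transcripts past an adjusted p of 0.05, the 10 largest differences each way (unadjusted p under 0.01, no overlap), 3 members by p and 2 by signal of lists over 0.3 from the median of all transcripts, quantitative PCR genes and cell type markers; all other genes named were chosen after their values were seen. Precision was limited by the 3 arrays per group and by dim signals, and the part of each was not tested. The alternatives changed scaling, background correction (normexp on the median signal, since the files hold no mean signal), filter, arrays, weights, block and assignment; 2 more, centring on the kept transcripts and a filter without Ti replicate 3, were chosen after seeing the data. Some of the genes followed by quantitative PCR are not reported here.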

Additional observations from a re-analysis of the deposited data

How the results depend on the processing

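The 34 genes picked by the naming rule and with an unadjusted p under 0.05 kept their direction in each of 619 alternatives that kept the assignment. Of these alternatives 572 kept p under 0.05 and 0 had an adjusted p under 0.05. The 34 genes were picked from the same data, and in most of them the groups did not overlap. For those, leaving out 1 array could not turn the sign, so the kept direction was largely set in advance. Of the other genes named at an unadjusted p under 0.05, slco2a1 took the opposite sign after normexp. Exchanging Td and Ti turned the sign of 34 of 34, and the series table of 30 of 30. Of 209 such alternatives for 11 lists, 6 had the opposite sign, and 7 values within a slide had. The count past the adjusted threshold was 1 with a filter over all 12 arrays, 1 with array weights and 0 to 14 with 1 array left out.

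Transcripts higher at p under 0.05 numbered 2039 at the 50th percentile, 254 with a filter on all 6 arrays, 170 with no filter, 415 with 6 arrays only, 1841 with array weights, 239 centred on kept transcripts, 246 exchanged, 65 in the series table and 231 to 1206 with 1 array left out. Those lower numbered 70 at the 50th percentile, 82 after normexp, 99 on all 6 arrays, 2717 with no filter, 385 with weights, 413 centred, 679 exchanged, 1170 in the series table and 154 to 379 with 1 array left out. Transcripts with all Td above all Ti arrays numbered 3807 at the 50th percentile, 494 on all 6 arrays, 736 centred, 285 exchanged and 87 in the series table; all below, 30, 114, 546, 1569 and 2851, with 90 after normexp and 2205 without filter. The median of all transcripts was 0.99, 0.34 (quantile), 0.31 (normexp), -0.93 (no filter), 0.0021 (centred), -0.22 (exchanged) and -0.49 (series table).

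The effector median relative to all transcripts was 0.10 with no filter, -1.12 to -0.58 with 1 array left out, -1.12 with Ti replicate 3 also out of the filter, -0.46 in slide 3, 0.79 exchanged and 0.82 in the series table. Neuron structure gave 1.24 with no filter, -0.35 exchanged and -0.19 in the series table. Matrix gave 0.36 (normexp), 0.74 (all 6 arrays), 1.37 (no filter), 0.45 (weights), 0.48 to 0.71 (1 array left out), 0.67 (slide 3), -0.56 (exchanged) and -0.49 (series table). The cause of these movements was not tested.

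With the replicate number as a block, 976 transcripts were higher and 320 lower at p under 0.05 and 0 passed the adjusted threshold. Deviations of same-numbered Td and Ti arrays correlated at 0.156, 0.236 and -0.092, and of others at -0.343 to 0.216. Deviations from a mean of 3 arrays are tied to each other. These correlations therefore cannot settle whether the number, which is the slide, paired the samples. Dim signals limit what can be read: the lowest signal well above background was -0.64 on Ti replicate 3.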
